A study of Homo sapiens with 12 samples.

Results

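Genes of fatty acid oxidation and of the nuclear receptor PPARA were followed in lenvatinib-resistant hepatocellular carcinoma cells. The set held 35 genes, named by symbol, and it covered the carnitine shuttle, acyl-CoA synthetases, the enzymes of the mitochondrial and peroxisomal oxidation spirals, acyl-CoA thioesterases, PPARA, its coactivator PPARGC1A and target genes. Of these, 28 were listed in at least 1 of the 2 deposited tables, out of 12365 gene symbols in either table: 12 in both, 5 in the Hep3B table alone and 11 in the Huh7 table alone. The other 7 (ACADM, ACSL3, CPT1B, ECI1, ETFA, HADH and HADHB) were listed in neither and were not analysed here. The 17 members in Hep3B stood among 8717 transcripts and the 23 in Huh7 among 7533 genes.

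Hep3B and Huh7 are established human lines grown from liver tumours. Each was sequenced as parental cells and as cells resistant to lenvatinib, an oral inhibitor of VEGF and FGF receptors and related kinases, with 3 libraries in each of the 4 groups. All cells grew in DMEM with fetal bovine serum. The labels name DMSO or lenvatinib as treatments without tying either to a library, and they do not say whether the resistant cells are 1 clone or whether the 3 libraries came from separate cultures, so p-values measure the spread between these libraries, which may be technical. In bulk RNA, fewer cells expressing a gene and less RNA per cell cannot be told apart.

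Hepatocytes burn fatty acids in mitochondria and peroxisomes. Long chains are first joined to coenzyme A by acyl-CoA synthetases. CPT1A then loads them onto carnitine at the outer mitochondrial membrane, the step that malonyl-CoA inhibits, and CPT2 returns them to coenzyme A inside. Each turn of the spiral then runs through a dehydrogenase, a hydratase, a second dehydrogenase and a thiolase, and hands electrons to the electron transfer flavoprotein. PPARA, a receptor for fatty acids that pairs with RXR, switches on many of these genes in fasted liver, where much of the resulting acetyl-CoA becomes ketone bodies.

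Values are scaled reads, meaning whole reads recovered from the deposited values and multiplied by 1 factor per library. Fold changes are log2(scaled reads + 1), resistant over parental, ± SE, and understate the change of genes with few reads. A gene was called higher or lower where limma's adjusted p was under 0.05. Reads over listed genes ran from 6184929 to 7475184 per Hep3B library and from 11480608 to 14174202 per Huh7 library. A Hep3B entry is 1 RefSeq transcript, so it may hold only part of a gene's reads. Of the 17 members there, 5 (HADHA, ACAA2, DECR2, FABP1 and PDK4) belong to genes with 1 RefSeq transcript. The Huh7 table lists only genes with a deposited adjusted p under 0.05, and all 7531 genes tested passed again (100%), so a call in Huh7 adds nothing to that selection and only directions and sizes are informative. Levels were not adjusted for gene length and are compared only within a gene.

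In Hep3B, ACAA2, PDK4 and 1 transcript each of CPT1A and ETFB were higher in resistant cells. FABP1 and 1 transcript each of CPT2 and ACSL4 were lower. These were 4 higher and 3 lower of 17 measured members, and 10 did not pass, where 49.5% of all 8717 transcripts tested passed, 27.6% higher and 21.9% lower. The members' counts lie near this background. The median log2 fold change was 0.16 over the 17 and 0.07 over all transcripts. In Huh7, 16 of 23 members were higher and 7 lower, where 48.0% of all genes were higher and 52.0% lower. Their median was 0.60, against -0.19 over all Huh7 genes tested. The libraries of parental and resistant cells did not overlap for 8 of 17 members in Hep3B (56.3% of all transcripts) and for 23 of 23 in Huh7 (98.6% of all genes).

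**Figure D1:**
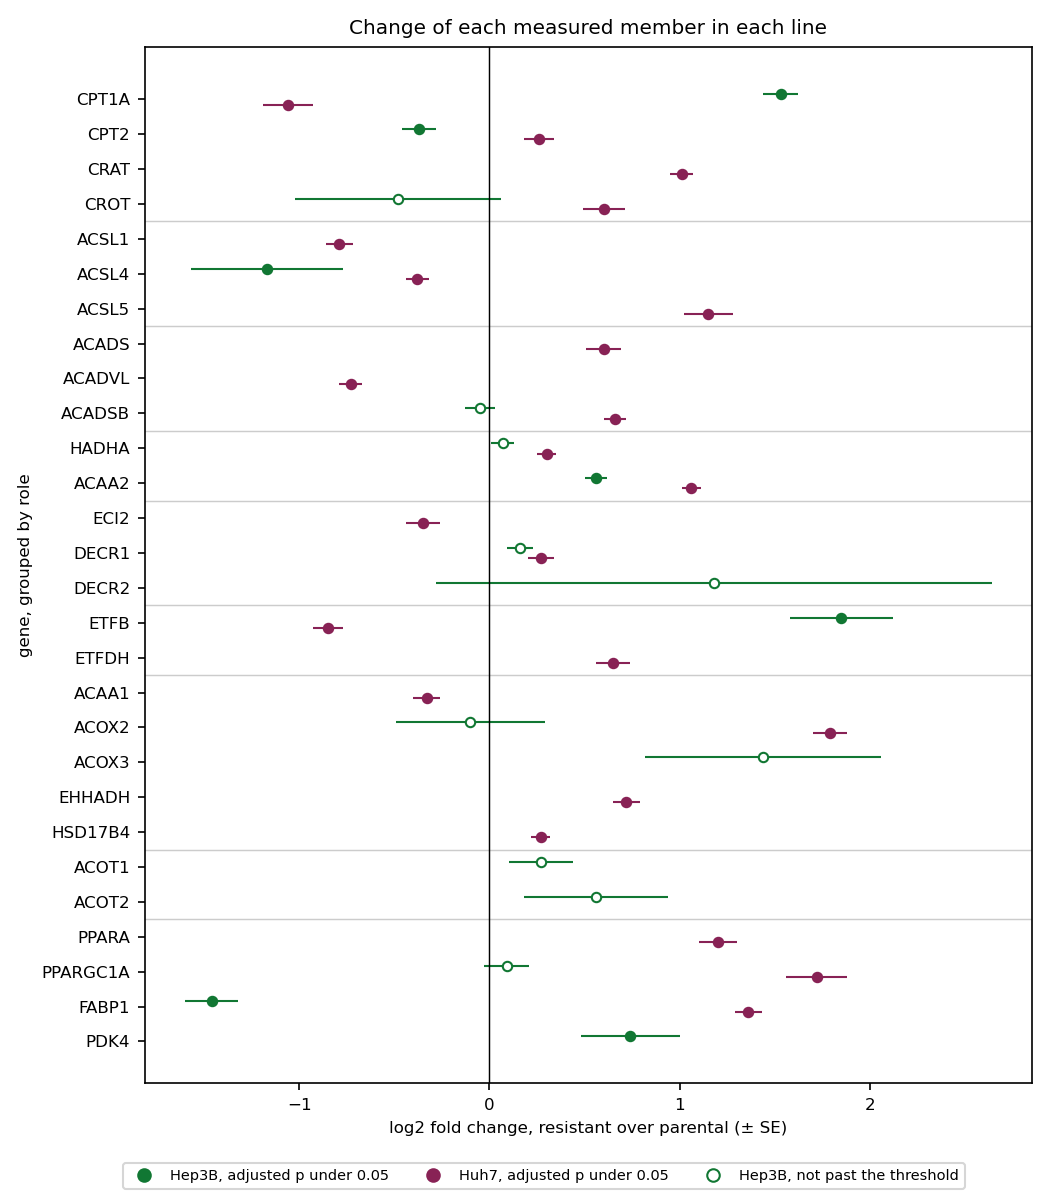
Log2 fold change of each measured gene, resistant over parental, with bars of ± SE, in Hep3B (green) and Huh7 (purple); filled points have a limma adjusted p under 0.05, open points do not, and grey lines part the roles. CPT1A lies at 1.53 in Hep3B and at -1.06 in Huh7, while FABP1 lies at -1.46 and 1.36.

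The 2 long-chain enzymes of the carnitine shuttle moved in opposite directions in the lines. CPT1A stood at 276, 320 and 270 scaled reads in parental Hep3B and at 794, 827 and 888 in resistant Hep3B, every resistant library above every parental one (1.53 ± 0.09, limma adjusted p = 9.1e-12). In Huh7 it stood at 214, 225 and 248 in parental and at 106, 101 and 121 in resistant cells, every resistant library below (-1.06 ± 0.13). The Hep3B value, from 1 of 10 RefSeq transcripts of CPT1A, was thus 2.89-fold higher in resistant cells. The Huh7 value, for the whole gene, was 2.10-fold lower. CPT2, whose Hep3B entry is 1 of 2 RefSeq transcripts, did the reverse on a smaller scale. It was 466, 436 and 427 in parental and 316, 365 and 345 in resistant Hep3B (-0.37 ± 0.09, limma adjusted p = 0.0017), and 418, 429 and 425 in parental and 514, 510 and 502 in resistant Huh7 (0.26 ± 0.08). Neither pair of groups overlapped.

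The enzymes that carry shorter acyl groups on carnitine rose in Huh7. CRAT, the carnitine acetyltransferase, was 633, 602 and 617 scaled reads in parental and 1257, 1244 and 1220 in resistant Huh7, a rise of 1.01 ± 0.06. CROT, the peroxisomal carnitine octanoyltransferase, rose there by 0.60 ± 0.11, from 273 ± 31.6 to 413 ± 39.8 (SD, n = 3). In Hep3B the CROT entry, 1 of 4 RefSeq transcripts, held 25 parental and 19 resistant reads in all and did not pass (-0.48 ± 0.54, limma adjusted p = 0.491).

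Acyl-CoA synthetases were unequal. ACSL4, which favours polyunsaturated chains such as arachidonate, was the only one listed in both tables. It was lower in Huh7, at 7653, 8209 and 8861 in parental and 6080, 6199 and 6636 in resistant cells (-0.38 ± 0.06). In Hep3B its entry, 1 of 11 RefSeq transcripts, went from 20.3, 16.4 and 12.9 to 6.57, 7.13 and 6.28 (-1.17 ± 0.40, limma adjusted p = 0.019), and without parental replicate 1 the call was lost (-1.02, limma adjusted p = 0.0827). ACSL1, a main synthetase of hepatocytes and a PPARA target, fell in Huh7 from 1280 ± 38.3 to 741 ± 54.1 (-0.79 ± 0.07). ACSL5, which sits on the endoplasmic reticulum and mitochondria, rose from 113 ± 17.9 to 252 ± 6.66 (1.15 ± 0.13). The Huh7 synthetases therefore went 2 down and 1 up.

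The mitochondrial acyl-CoA dehydrogenases, which open each turn, went both ways in Huh7. ACADVL, for very long chains, fell from 2863, 2679 and 2461 to 1584, 1635 and 1605 (-0.73 ± 0.06). ACADS, for short chains, rose from 356, 360 and 304 to 551, 534 and 466 (0.60 ± 0.09), and ACADSB, for short branched chains from isoleucine, rose from 2075 ± 209 to 3259 ± 117 (0.66 ± 0.06). No groups overlapped. ACADSB was the one dehydrogenase listed in Hep3B and did not pass there (624 ± 32.3 and 602 ± 56.9, -0.05 ± 0.08, limma adjusted p = 0.621).

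Of the 12 members listed in both tables, ACAA2 was the only one called higher in both lines. This mitochondrial thiolase is one that releases acetyl-CoA at the end of a turn. It stood at 1768, 1914 and 1687 in parental and 2663, 2445 and 2801 in resistant Hep3B (0.56 ± 0.06, limma adjusted p = 1.72e-07). In Huh7 it stood at 1284, 1261 and 1333 in parental and 2677, 2706 and 2689 in resistant cells (1.06 ± 0.05). The groups did not overlap in either line. HADHA, the alpha subunit of the trifunctional protein, rose in Huh7 from 3248 ± 49.4 to 4003 ± 124 (0.30 ± 0.05). In Hep3B it was 1803 ± 66.8 and 1896 ± 74.1, with overlapping groups (0.07 ± 0.06, limma adjusted p = 0.299).

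Enzymes that prepare unsaturated chains had smaller or unsettled values. DECR1, the mitochondrial dienoyl-CoA reductase, rose in Huh7 from 595 ± 4.83 to 715 ± 17.0 (0.27 ± 0.07), and in Hep3B it was 903 ± 33.9 and 1012 ± 76.4 and did not pass (0.16 ± 0.07, limma adjusted p = 0.0583). ECI2, an enoyl-CoA isomerase, fell in Huh7 by 0.35 ± 0.09. DECR2, the peroxisomal dienoyl-CoA reductase, split the Hep3B libraries without regard to group. It was 118, 13.2 and 10.9 in parental and 102, 155 and 13.6 in resistant cells (1.18 ± 1.46, limma adjusted p = 0.564).

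Electron transfer genes went apart. ETFB encodes the beta subunit of the electron transfer flavoprotein. In Huh7 it fell from 979, 870 and 831 to 474, 524 and 486 (-0.85 ± 0.08), while ETFDH, which passes the electrons to ubiquinone, rose from 294 ± 19.4 to 463 ± 17.9 (0.65 ± 0.09). In Hep3B the ETFB entry rose from 14.7, 20.8 and 14.9 to 85.5, 51.9 and 54.4 (1.85 ± 0.27, limma adjusted p = 9.2e-06), the highest value being that of resistant replicate 1. That entry is transcript NM_001014763, which in GENCODE release 29 starts 9312 bases downstream of transcript NM_001985. It held 50 parental and 194 resistant reads, so the Hep3B value describes 1 sparsely counted transcript, while the Huh7 value describes the gene.

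Most of the 4 peroxisomal oxidation members listed in Huh7 rose. ACOX2, an oxidase of branched chains and bile acid precursors, had the largest rise of the 23 Huh7 members on the log2 scale, from 199, 226 and 206 to 720, 717 and 750 (1.79 ± 0.09). EHHADH, the L-bifunctional enzyme and a PPARA target, rose from 736 ± 67.2 to 1206 ± 15.3 (0.72 ± 0.07), and HSD17B4, the D-bifunctional enzyme, rose from 3053 ± 191 to 3673 ± 53.7 (0.27 ± 0.05). ACAA1, the peroxisomal thiolase, fell from 2464 ± 263 to 1958 ± 17.2 (-0.33 ± 0.07). Thus 3 of the 4 peroxisomal members listed in Huh7 were higher, where 48.0% of all Huh7 genes were. The wider list of peroxisomal genes below split evenly there, 7 higher and 7 lower. Hep3B gave no call here, with 37 parental and 33 resistant reads for ACOX2 (-0.10 ± 0.39, limma adjusted p = 0.861) and 9 and 28 for ACOX3, a branched-chain oxidase (1.44 ± 0.62, limma adjusted p = 0.0629). The thioesterases ACOT1 and ACOT2, which free fatty acids from coenzyme A, were listed in Hep3B alone. They did not pass (0.27 ± 0.17 and 0.56 ± 0.38, limma adjusted p = 0.191 and 0.232). They are near-identical neighbours whose reads could be divided between them, and the ACOT2 entry is a non-coding transcript.

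**Figure D2:**
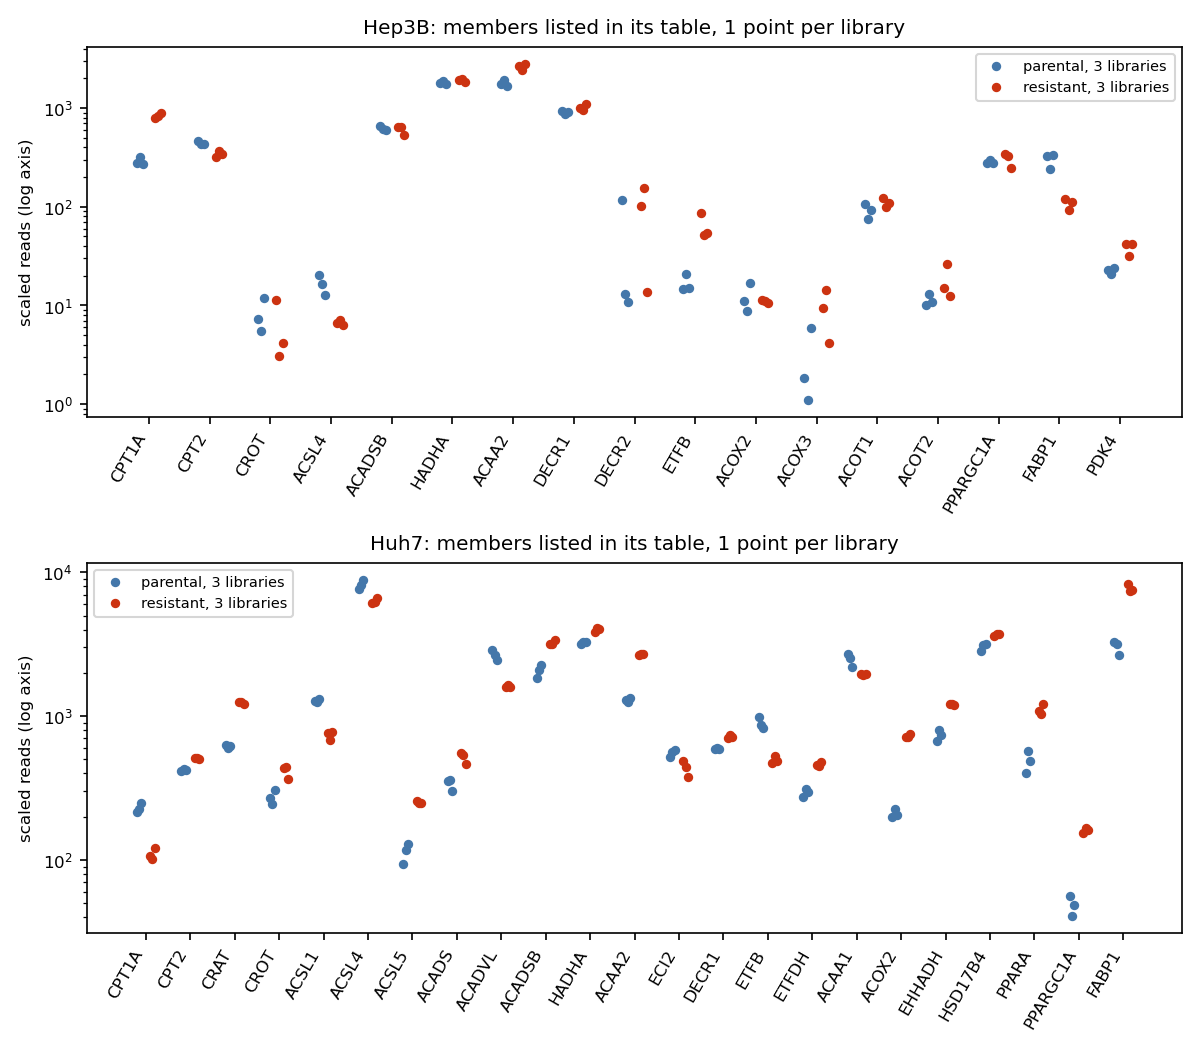
Scaled reads of each member in each library on a log axis, Hep3B above and Huh7 below, with parental libraries in blue and resistant ones in red. DECR2 in Hep3B runs from 10.9 to 155 with 3 libraries high and 3 low. All 23 Huh7 members show groups that do not overlap, as do 98.6% of all Huh7 genes tested.

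PPARA and its coactivator were higher in resistant Huh7. PPARA stood at 401, 572 and 486 in parental and 1077, 1036 and 1207 in resistant cells (1.20 ± 0.10), and PPARGC1A, the coactivator of mitochondrial genes, at 55.8, 40.7 and 48.3 and at 153, 168 and 161 (1.72 ± 0.16). Neither pair of groups overlapped. PPARA was not listed in Hep3B. The Hep3B entry of PPARGC1A, 1 of 29 RefSeq transcripts, was 279, 296 and 278 in parental and 344, 326 and 247 in resistant cells, with overlapping groups (0.09 ± 0.12, limma adjusted p = 0.561).

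FABP1, the liver fatty acid binding protein that carries ligands to PPARA and is itself a target, changed in the direction opposite to CPT1A in both lines. In Hep3B it was 324, 240 and 331 in parental and 120, 91.6 and 111 in resistant cells, 2.77-fold lower (-1.46 ± 0.14, limma adjusted p = 4.23e-08). In Huh7 it was 3264, 3186 and 2667 in parental and 8334, 7380 and 7560 in resistant cells, 2.55-fold higher (1.36 ± 0.07). Liver-derived markers moved with it: all 6 listed of 8 (ALB, AFP, APOB, APOH, TF and TTR) fell in Hep3B, by log2 values between -1.55 and -0.73. Their summed level went from between 368134 and 375461 scaled reads to between 174898 and 179438. In Huh7, 4 of 5 listed rose and SERPINA1 fell, with log2 values between -0.12 and 0.46 and sums from between 380530 and 425775 to between 502648 and 526394. Their part in the result was not tested.

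PDK4, the kinase that turns off pyruvate dehydrogenase when fat is burned, was 23.0, 20.8 and 23.8 in parental and 42.3, 31.6 and 41.8 in resistant Hep3B (0.74 ± 0.26, limma adjusted p = 0.024). The Hep3B PDK4 call is weak and was lost with median centring (0.58, limma adjusted p = 0.0705), with DESeq2 (0.71, adjusted p = 0.0895) and in the authors' deposited table (0.71, adjusted p = 0.095). Leaving out parental replicate 2 gave a limma adjusted p of 0.0521, leaving out resistant replicate 1 gave 0.09, and leaving out resistant replicate 3 gave 0.0854.

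**Figure D3:**
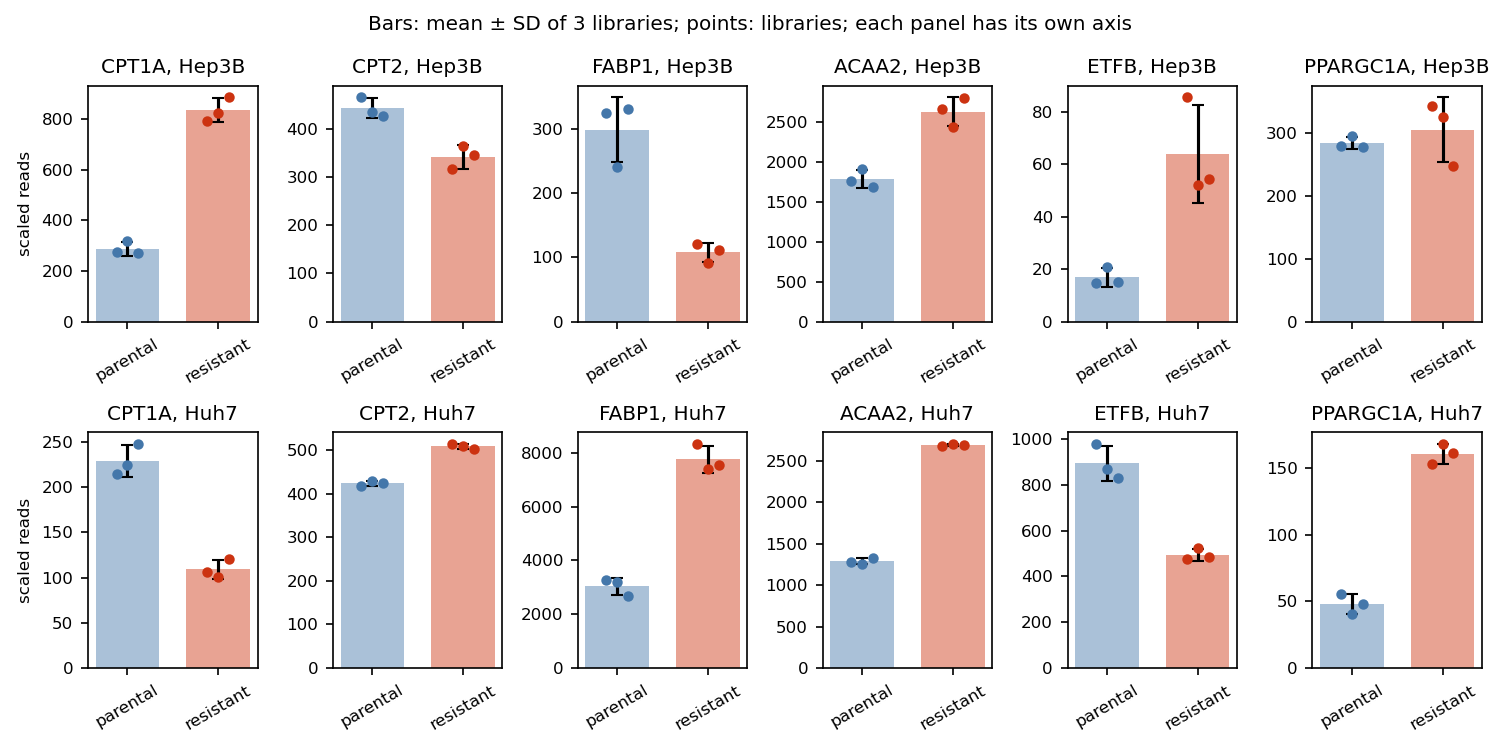
Scaled reads of 6 genes in both lines (rows), bars at the mean with error bars of SD over 3 libraries and a point per library; each panel has its own axis starting at 0. CPT1A rises in Hep3B and falls in Huh7, FABP1 does the reverse, and ACAA2 rises in both, to 2636 and 2691 scaled reads.

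Windows before the gene starts of FABP1, CPT1A and ACAA2 are shown because these genes carry the opposite and the shared changes. They cover the 250 bases before the RefSeq gene start (GRCh38.p14), on the minus strand at chr2:88128063-88128312, chr11:68844278-68844527 and chr18:49813534-49813783, and are written 5′ to 3′. Capitals mark matches to the motifs named after them.
FABP1: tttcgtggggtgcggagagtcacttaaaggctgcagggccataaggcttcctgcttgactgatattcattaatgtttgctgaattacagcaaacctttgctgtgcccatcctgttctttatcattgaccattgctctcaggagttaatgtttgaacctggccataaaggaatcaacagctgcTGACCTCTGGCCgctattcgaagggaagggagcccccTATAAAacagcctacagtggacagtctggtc
CPT1A: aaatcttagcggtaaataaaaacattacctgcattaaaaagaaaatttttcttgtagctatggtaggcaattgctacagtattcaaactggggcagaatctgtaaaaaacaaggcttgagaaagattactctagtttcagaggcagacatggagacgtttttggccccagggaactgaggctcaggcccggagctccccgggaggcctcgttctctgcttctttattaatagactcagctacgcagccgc
ACAA2: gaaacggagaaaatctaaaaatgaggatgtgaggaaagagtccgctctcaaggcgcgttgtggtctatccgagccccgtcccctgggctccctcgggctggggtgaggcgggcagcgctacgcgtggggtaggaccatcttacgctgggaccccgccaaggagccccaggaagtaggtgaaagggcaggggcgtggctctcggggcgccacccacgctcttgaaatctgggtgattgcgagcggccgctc

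Nuclear receptors such as PPARA with RXR bind 2 half-sites set 1 base apart. The FABP1 window held the half-site AGGTCA on the reverse strand, 68 to 63 bases before the start, as part of a match to a relaxed double site from 68 to 57, GGNCA followed after 1 base by AGGTCA. That relaxed form was chosen after the FABP1 sequence had been read, and it overlaps the half-site. A response element for PPARA has been described in the proximal promoter of the rat gene. It also held a TATA box (TATAAA) 31 to 26 bases before the start. The windows of CPT1A and ACAA2 had no match to these motifs, to the full double site, AGGTCA repeated after 1 base, or to the GC box GGGCGG, which says only that these letters are not there. Both strands were searched. CPT1A has 10 RefSeq transcripts, and whether its window adjoins the start of the transcript counted in Hep3B was not checked. A window was available for 20 of the 28 measured members, 32 windows in all. Of these windows 6.25% held AGGTCA, against 12.1% of all 35116. The full double site was in 0 member windows and in 0.0171% of all. The relaxed double site was in 0.145% of all windows and in 3.12% of member windows, that of FABP1 alone. Because it was chosen from that sequence, its share among members was fixed in advance and is no test of enrichment. The GC box was in 59.4% of member windows and 42.6% of all, and TATAAA in 6.25% and 10.7%. Member windows were also richer in GC, with a median of 63.2% against 58.0%, and its part in these shares was not tested.

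The change in resistant cells was set side by side for the 12 members listed in both tables. It differed between Huh7 and Hep3B for 9 of them, where 67.6% of the 3885 shared symbols differed (difference of both limma log2 fold changes over its standard error, adjusted over all shared symbols). The share of the members is close to that background. Both shares, and the adjusted p-values below, rest on Huh7 changes already selected for a deposited adjusted p under 0.05. CPT1A, CPT2, FABP1 and ETFB were called in opposite directions, 4 of 12 where 29.1% of all shared symbols were. ACAA2 and ACSL4 were called in the same direction, 2 of 12 where 25.7% were. The other 6 did not pass in Hep3B. The widest differences, Huh7 minus Hep3B, were those of FABP1 (2.81 ± 0.16, adjusted p = 1.8e-18), ETFB (-2.70 ± 0.28, adjusted p = 8.47e-11) and CPT1A (-2.59 ± 0.15, adjusted p = 7.13e-18). PPARGC1A differed by 1.63 ± 0.20 and ACOX2 by 1.89 ± 0.40. The rise of ACAA2 was larger in Huh7, by 0.50 ± 0.08 (adjusted p = 1.32e-06). No difference was called for ACSL4 (0.79 ± 0.40, adjusted p = 0.0809), CROT (1.08 ± 0.55, adjusted p = 0.0805) or DECR1 (0.10 ± 0.10, adjusted p = 0.359), which does not show that they changed alike. For genes with several transcripts the comparison sets 1 transcript in Hep3B against a whole gene in Huh7.

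**Figure D4:**
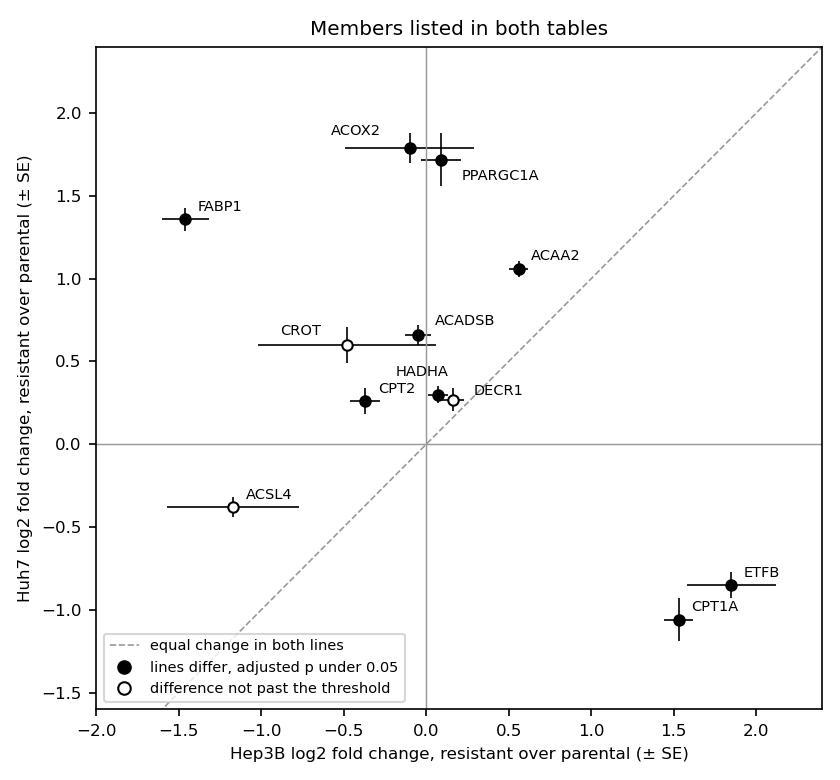
Log2 fold change in Hep3B (x axis) against Huh7 (y axis) for the 12 genes in both tables, with bars of ± SE; filled points differ between the lines at an adjusted p under 0.05. FABP1 and CPT2 lie upper left, CPT1A and ETFB lower right, and ACAA2 upper right, above the dashed line of equal change.

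Neighbouring genes of the same metabolism were counted in 8 lists holding 142 genes. In Hep3B 65 were measured, of which 17 were higher and 21 lower, and in Huh7 78 were measured, of which 42 were higher and 36 lower. All entries split 27.6% and 21.9% in Hep3B, and 48.0% and 52.0% in Huh7. Some genes stand in more than 1 list.

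Ketone body genes included the largest rise of these lists in Hep3B. OXCT1, which lets cells burn ketone bodies and is low in normal liver, stood at 6.44, 5.48 and 3.96 in parental and 80.8, 87.6 and 86.8 in resistant Hep3B (3.79 ± 0.30, limma adjusted p = 1.12e-09). It was not listed in Huh7. Of the 7 genes, 5 were measured in Hep3B (2 higher, 3 that did not pass) and 4 in Huh7 (3 higher, 1 lower). The cytosolic dehydrogenase gene BDH2 rose in Hep3B (0.85 ± 0.10) and the mitochondrial BDH1 fell in Huh7 (-1.12 ± 0.14) and did not pass in Hep3B (0.45 ± 0.61).

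Other PPARA targets went both ways. In Huh7 8 of 12 were higher and 4 lower, with a median of 0.91. ANGPTL4, a lipase inhibitor and a sensitive PPAR target, fell from 161, 133 and 125 to 55.0, 64.0 and 57.7 (-1.23 ± 0.16), and the lipid droplet gene PLIN2 fell from 5761 to 4179 on average (-0.46 ± 0.05). G0S2, an inhibitor of lipolysis, had 2 parental and 37 resistant reads, a ratio of 20.3 with an exact 95% counting interval of 5.23 to 174. In Hep3B 2 of 10 were higher and 3 lower, with a median of 0.12. PLIN5, which ties lipid droplets to mitochondria, rose from 47.9, 50.4 and 46.6 to 277, 240 and 258 (2.39 ± 0.14), FGF21, a fasting hormone of the liver, rose from 10.1, 5.48 and 6.93 to 18.8, 23.4 and 26.1 (1.51 ± 0.38), and TXNIP, an inhibitor of thioredoxin, fell (-2.46 ± 0.28).

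The remaining lists were mixed. Of PPARA partners and co-regulators, 5 of 11 fell in Hep3B and the other 6 did not pass, the corepressor NRIP1 (-0.72 ± 0.06) and the acetyltransferase gene EP300 (-0.45 ± 0.10) being among those that fell. Both also fell in Huh7 (-0.31 and -0.17). In Huh7 8 of 14 rose and 6 fell, led by PPARGC1B (1.03 ± 0.13) and LPIN1 (0.79 ± 0.06). PPARG rose in Huh7 (0.38 ± 0.10), and the Hep3B entries of PPARG (0.56 ± 0.67), PPARD (0.99 ± 0.73) and RXRA (-0.49 ± 0.49) held 33 reads or fewer per group and did not pass. Of carnitine supply genes, 2 of 4 fell in Hep3B, BBOX1, which makes carnitine, by 2.98 ± 0.45 and ALDH9A1 by 0.32 ± 0.09 (lost without limma's trend, adjusted p = 0.0855, and higher in Huh7, 0.23), while the carnitine carrier SLC25A20 stood at 297 ± 24.0 and 299 ± 28.6 (0.01 ± 0.10, limma adjusted p = 0.966). In Huh7 2 rose and 2 fell, CPT1C, a brain-type relative of CPT1A, from 72 reads to 1 (ratio 65.7, exact 95% counting interval 11.4 to 2631) and SLC25A29 by 0.55 ± 0.13, whose Hep3B entry did not pass (0.18 ± 0.36). Of uptake and activation genes 3 of 7 rose and 2 fell in Hep3B, and 4 of 8 rose and 4 fell in Huh7. The fatty acid transporter SLC27A1 rose in Hep3B (1.34 ± 0.25) and SLC27A2, the liver and peroxisomal one, in Huh7 (1.55 ± 0.15). The entry Hep3B DBI, the acyl-CoA binding protein, was called higher from 10 and 38 reads of 1 transcript, a call absent from the authors' deposited table (1.87, adjusted p = 0.145), lost without limma's trend (adjusted p = 0.0648) and lost when any of 3 libraries was left out. The limma adjusted p was 0.209 in the absence of resistant replicate 3, 0.0532 in that of resistant replicate 1, and 0.086 in that of parental replicate 1. ACSM2A rose in Huh7 (1.43 ± 0.30), but near-identical neighbours may share its reads.

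Mitochondrial enzymes outside the set split too, 3 of 9 higher and 1 lower in Hep3B, and 4 of 12 higher and 8 lower in Huh7. HSD17B10, which acts on short branched chains, fell in Huh7 (-1.04 ± 0.07), as did the thioesterase gene ACOT7 (-0.78 ± 0.07), which did not pass in Hep3B (0.50 ± 0.25), and MCEE, of propionate breakdown, fell in both lines (-0.87 ± 0.20 in Hep3B, -0.28 in Huh7). NUDT19, a coenzyme A hydrolase, rose in both (0.61 ± 0.10 in Hep3B, 0.64 in Huh7). Of peroxisomal genes 3 of 13 were higher and 6 lower in Hep3B, the reductase PECR (-0.81 ± 0.09, against 0.43 in Huh7) being among those that fell, and 7 of 14 were higher and 7 lower in Huh7, with rises of catalase (CAT, 0.78 ± 0.06, against -0.72 in Hep3B) and of PHYH, of phytanic acid breakdown (0.73 ± 0.07). Of lipolysis and malonyl-CoA genes, 4 of 8 rose and 2 fell in Hep3B, and 7 of 11 rose and 4 fell in Huh7. The lipase gene LIPE rose in Hep3B (1.74 ± 0.38) and PNPLA3 fell (-0.67 ± 0.08), while it rose in Huh7 (0.61). In Huh7 the monoglyceride lipase MGLL fell from 9363, 8944 and 8784 to 3564, 3491 and 3829 (-1.32 ± 0.05). ACACB, which makes the malonyl-CoA that inhibits the CPT1 enzymes, was 205, 202 and 216 in parental and 442, 430 and 445 in resistant Huh7 (1.08 ± 0.09), and it was called lower in Hep3B (-0.39 ± 0.14, limma adjusted p = 0.0279).

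**Figure D5:**
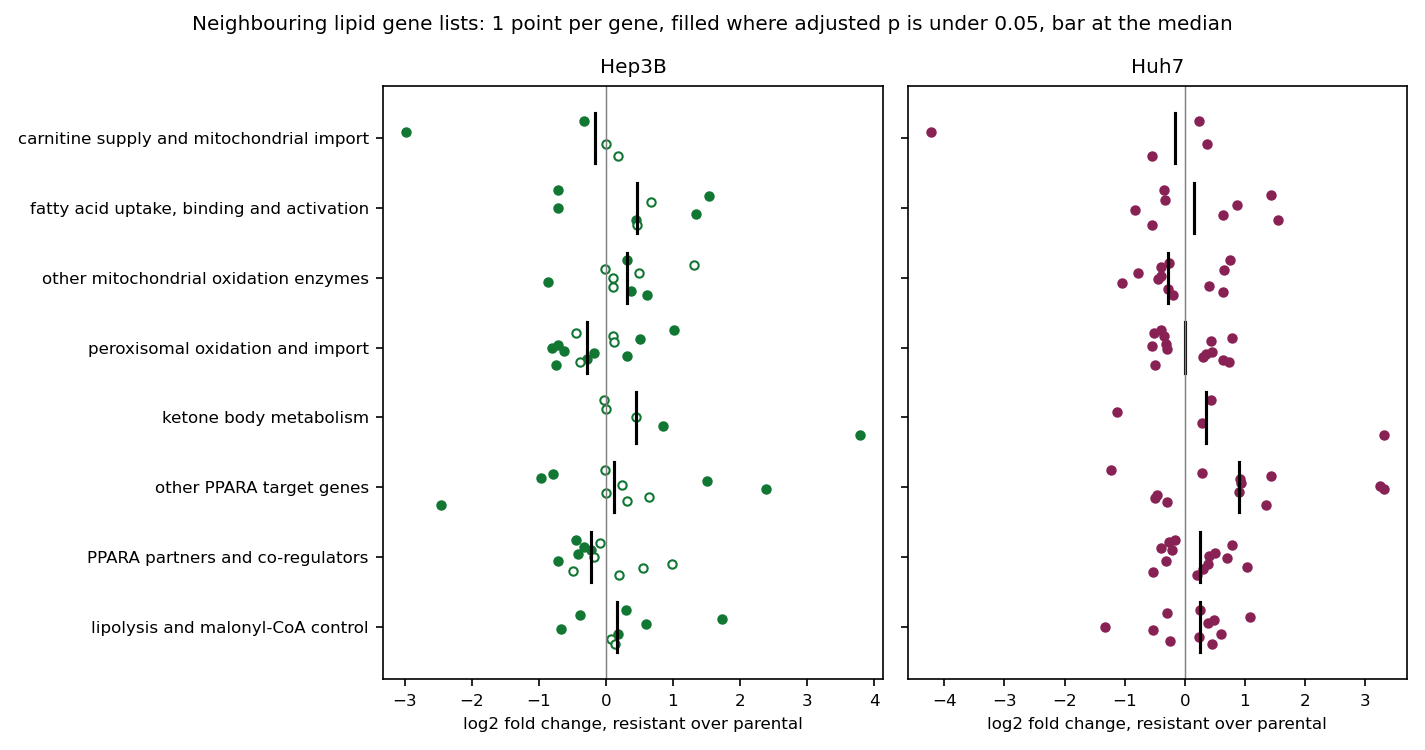
Log2 fold change of the genes in the 8 neighbouring lists, Hep3B left and Huh7 right, with a point per gene, filled where the limma adjusted p is under 0.05, and a black bar at each list's median. OXCT1 (3.79) is the point farthest right in Hep3B.

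How many Hep3B transcripts rose rather than fell turned on the scaling. With the factors in the deposited values, 55.7% of all calls were higher (2405 against 1912) and the median over all transcripts was 0.07. The share higher was 49.4% with edgeR, 48.3% with DESeq2 and 48.6% by the authors' deposited calls. Centred on the median of each library instead, 39.2% were higher (1747 against 2704) and the median was -0.09. With such centring CPT1A (1.37), ETFB (1.69) and ACAA2 (0.40) were still called higher and FABP1 (-1.62), CPT2 (-0.53) and ACSL4 (-1.33) lower. Markers of other cell types had reads in both groups of both lines. Of 5 fibroblast markers, 4 were listed in Hep3B (2 higher, 2 lower) and 3 in Huh7 (all lower). They summed to between 616 and 693 scaled reads in parental and 2224 and 2501 in resistant Hep3B. In Huh7 the sums were between 4161 and 4350 and between 884 and 888. In Hep3B the means of COL1A1 (24.9 to 1937) and COL1A2 (79.3 to 320) rose, while LUM (355 to 67.8) and PDGFRB (203 to 47.4) fell. Leukocyte markers (2 of 3 listed in each) fell in sum in both, from between 438 and 520 to between 108 and 121 in Hep3B and from between 6456 and 6674 to between 5280 and 5460 in Huh7. LYZ held most of these reads, and the other marker rose in each line, LAPTM5 in Hep3B (2.20) and PTPRC in Huh7 (1.07). Endothelial markers (2 of 4 listed in Hep3B, 3 in Huh7, where PECAM1 rose by 0.91 while VWF (-1.62) and ESAM (-1.97) fell) went in sum from between 28.5 and 46.6 to between 81.4 and 82.6 in Hep3B and from between 133 and 171 to between 236 and 255 in Huh7. Among listed markers LAPTM5 in Hep3B was the only one with a library at 0. Their part in the results was not tested.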

How the data were processed

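RNA-seq of 12 libraries was analysed, 3 per group. There is 1 deposited table for each line. The submitters' processing notes name the genome build GRCh37, and no source used here names the aligner, counter, strand setting or annotation. The signal values the authors deposited for Hep3B proved, from the values, to be 2 times the root of (reads + 0.375) times 1 factor per library, and the deposited Huh7 signal values to be reads times 1 factor. Inverting this returned whole reads in 100% of cases (tolerance 0.05 read). Both tables also hold the authors' log2 fold change and adjusted p-value, per the file headers. The Hep3B entry with no gene name (0.000119% of reads) was left out.

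Each line was fitted on log2(scaled reads + 1) with limma 3.58.1 (trend, robust, two-sided, R 4.3.3), using entries that reached 1 scaled read in 3 or more libraries, with Benjamini-Hochberg adjustment over the whole table at 0.05. The difference between lines was divided by the root of the summed squared standard errors and adjusted over the 3885 shared symbols. The fits were also run on simulated counts, where few genes changed, all of them well counted, with 1 fixed spread. That setting does not cover sparsely counted entries or the selection of the Huh7 genes. Alternatives were pseudocounts of 0.5 and 5, no filter, a filter of 10 scaled reads, median centring, edgeR 4.0.16, DESeq2 1.42.0, limma without trend, a replicate block, the authors' deposited calls and each library left out. Alternatives for the neighbouring lists were added after seeing the data. No replicates agreed within sampling noise. The members and lists were chosen with earlier results of these data known. All measured members are named, and from each list the 2 called genes with the largest change per line plus defining genes, of which CD36 was not listed. Some genes that this rule names are not reported here. Transcript numbers (35 members matched) and the windows before gene starts came from RefSeq on GRCh38.p14, and the ETFB starts from GENCODE on GRCh38. Counting intervals cover counting error only.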

Additional observations from a re-analysis of the deposited data

Results flagged for a closer look

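The resistant over parental change differed between the lines for 9 of the 12 genes in both tables, and for 67.6% of all shared symbols. This was judged by the test of the difference itself, given here as Huh7 minus Hep3B log2 fold change. The difference was -2.59 for CPT1A, 0.64 for CPT2 (adjusted p = 1.36e-05), -2.70 for ETFB and 2.81 for FABP1. These 4 genes had opposite calls, as did 29.1% of all shared symbols. The Hep3B entry of ETFB is 1 transcript with 50 parental reads. For ACAA2, which rose in both lines, the difference was 0.50. Of the genes that differed but did not pass in Hep3B, it was 0.71 for ACADSB (adjusted p = 1.87e-07), 0.23 for HADHA (adjusted p = 0.00702), 1.89 for ACOX2 (adjusted p = 8.56e-05) and 1.63 for PPARGC1A (adjusted p = 3.87e-09). Passing in Huh7 was already set by the listing, and these p-values carry that selection. Every parental and resistant library lay apart in both lines for CPT1A, CPT2, ETFB, FABP1 and ACAA2. Within each line, 56.3% of all Hep3B transcripts and 98.6% of all Huh7 genes had groups that did not overlap. No explanation was tested.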

How the results depend on the processing

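The Huh7 counts, 16 higher and 7 lower, were the same under every alternative run, and all 23 genes kept their calls. That follows largely from the listing of only those Huh7 genes with a deposited adjusted p under 0.05. Over all Huh7 genes, too, 3614 were called higher in the main fit, with median centring, with edgeR and with DESeq2. The number called lower did vary. It was 3917 in the main fit, 3746 with median centring, 3890 with edgeR and 3497 with DESeq2. In Hep3B the count of higher members ran from 3 to 5 with 1 library left out and from 3 to 6 otherwise, and of lower members from 2 to 3 and from 3 to 4; 9 of the 17 genes gave the same verdict throughout. The number differing between lines ran from 9 to 10 and from 9 to 12, the most with median centring. Values that did not pass changed sign: HADHA (-0.09), PPARGC1A (-0.07) and SLC25A20 (-0.15) with median centring, SLC25A20 also with edgeR (-0.05), DESeq2 (-0.05) and the authors' deposited values (-0.06), and, over the libraries left out in turn, ACADSB (-0.09 to 0.03), ACOX2 (-0.29 to 0.14), PPARGC1A (-0.0039 to 0.23), PPARG (-0.04 to 1.15) and SLC25A20 (-0.05 to 0.08). ACADSB passed as lower with median centring (-0.21). ACOX3 passed as higher without parental replicate 3 (1.94) or resistant replicate 3 (1.86). DECR1 did without resistant replicate 2 (0.21). The difference between lines passed for CROT with a pseudocount of 5 (0.88), with median centring (1.30) and without Hep3B resistant replicate 1 (1.55), for ACSL4 with median centring (1.01), edgeR (0.99) and limma without trend (0.79), and for DECR1 with median centring (0.32). CROT and ACOX3 had no value in Hep3B under the filter of 10 scaled reads. The higher genes of the neighbouring Hep3B lists numbered 17, against 11 by the authors' deposited calls. The cause was not tested.

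Deviations of same-numbered libraries correlated only weakly. The correlations were 0.0371, 0.0891 and 0.0558 in Hep3B, where each library correlated best with its own number, so pairing there is not settled. In Huh7 they were -0.00821, 0.005 and 0.0491. With the replicate block, 6 Hep3B members were higher and 3 lower, DECR1 (0.16) and ACOX3 (1.44) being added, and Huh7 stayed at 16 and 7.

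Depth limits the Hep3B entries of CROT, ACOX2, ACOX3 and ACSL4, which held 50 reads or fewer per group.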

Other observations

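DECR2 was the only one of 8717 Hep3B transcripts whose parental replicate 1, resistant replicate 1 and resistant replicate 2 each stood more than 4 times above all 3 other libraries, and 0 transcripts stood as far below in the same libraries. The search was made after its values were seen. Its log2 fold change was 1.18 with all libraries and ran from 0.52 without resistant replicate 2 to 2.25 without parental replicate 1, and no alternative called it.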
